A study of Mus musculus with 29 samples.

Results

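The BCL2 family decides at the mitochondrion whether a cell lives or enters apoptosis, and the 9 genes described here are the family members Bcl2, Bcl2l1, Mcl1, Bcl2a1b, Bak1, Bcl2l11, Bid, Bad and Bmf. They were taken by gene symbol from the 55376 symbols counted in RNA-seq libraries of mouse hematopoietic stem cells (HSCs), and all 9 were among the 33690 genes that passed the filter on low counts. The 19 libraries came from young wild-type HSCs (YWT, n = 4), old wild-type HSCs (OWT, n = 4), young Gadd45b knockout HSCs (YKO, n = 4) and old Gadd45b knockout HSCs (OKO, n = 7). The labels give age only as young or old, the genotype as WT or Gadd45KO, and female for every library, whereas the study's methods state that both sexes were used. The study defines HSCs as lineage-negative, Sca-1+ and c-kit+ cells that are CD34-, Flk2- and CD150+, a gate meant to leave out mature blood cells. The knockout mice are a JAX line, and whether a library is 1 mouse or a pool is not stated. The p-values therefore measure the spread between libraries, which may be partly technical.

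Anti-apoptotic members (Bcl2, Bcl-xL from Bcl2l1, Mcl1 and A1 from Bcl2a1b) hold the pore-forming effectors Bak and Bax in check. BH3-only members (Bim from Bcl2l11, Bid, Bad and Bmf) sense stress, loss of growth factors or detachment, and neutralise the anti-apoptotic members or engage the effectors directly. Mcl1 is required for HSC survival in mice, and forced Bcl2 expression enlarges the HSC pool. Much of the control over the family acts on the proteins, by phosphorylation of Bad, cleavage of Bid and rapid turnover of Mcl1, and mRNA counts do not measure it.

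Library totals ranged from 22197555 to 77970627 counts. Sequencing took place in batches: batch 1 held all YWT and YKO libraries with OKO1 to OKO3, and batch 2 held all OWT libraries with OKO4 to OKO7. From the WT libraries alone, the effects of age and of batch therefore cannot be told apart. OKO1 and OKO3 stood apart, with TMM scaling factors (trimmed mean of M values, the library size correction of edgeR) of 1.83 and 1.41 against 0.69 to 1.24 in the other libraries. The targeted gene, Gadd45b, was at 2.84 to 6.94 CPM (counts per 1e+06 counts of the scaled library) in OKO, below the 10.1 to 15.5 CPM of OWT, but its 5.14 to 14.3 CPM in YKO overlapped the 7.34 to 17.5 CPM of YWT. YKO1 and YKO2 (12.7 and 14.3 CPM) were within the YWT range and YKO3 and YKO4 (5.98 and 5.14 CPM) below it. Which exons the knockout allele lacks is not given in the sources used here, so these counts check the labels only in part, and libraries are grouped by label. In every library each of 8 HSC marker genes was counted, and their summed level was 2246 to 4663 CPM. The summed level of 8 B cell markers, all of them counted in each group, was 220 to 674 CPM in YWT, 64.1 to 208 in OWT, 196 to 1515 in YKO and 27.5 to 197 in OKO. The sum of 7 T cell markers was 32.3 to 143 CPM in YKO and 8.41 to 46.0 CPM in the other groups. The sum of 6 erythroid markers, each counted in every library, separated YKO from all other groups, at 489 to 1406 CPM against 264 to 413 in YWT, 102 to 226 in OWT and 23.6 to 469 in OKO. The sum of 8 granulocyte markers was highest in OWT (605 to 895 CPM) and 50.3 to 605 CPM in the other groups. Sums of 5 macrophage, 5 megakaryocyte and 4 plasma cell markers overlapped between the groups. The plasma cell sum was 26590 CPM in YWT2 and 8724 and 13550 CPM in YKO1 and YKO2, against 121 to 4499 CPM in the other libraries. YWT2 also had the highest Mcl1, Bcl2l11, Bmf and Bcl2a1b of YWT, and by a small margin the highest Bid (76.1 against 75.8 CPM in YWT1). The part of plasma cell transcripts there was not tested. Of the macrophage markers, Csf1r (38.5 to 49.7 against 21.9 to 31.9 CPM) and Adgre1 were above YWT in each YKO library. Lyz2, Cd68 and Fcgr1 overlapped. YKO1 and YKO2 had the highest B cell marker sums of the series (836 and 1515 CPM), while YKO3 (251 CPM) was within the YWT range and YKO4 (196 CPM) below it. In such bulk samples fewer cells of a type and less RNA per cell cannot be told apart.

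The members lie on 7 chromosomes of mm10, and 4 of them share exon bases with a gene on the other strand. Among the anti-apoptotic genes, Bcl2 (ENSMUSG00000057329.7) spans chromosome 1, 106538178 to 106714274, on the minus strand, Bcl2l1 (ENSMUSG00000007659.18) spans chromosome 2, 152780668 to 152831728, on the minus strand, and Mcl1 (ENSMUSG00000038612.16) spans chromosome 3, 95658788 to 95663176, on the plus strand. Bcl2a1b (ENSMUSG00000089929.1) lies on the plus strand of chromosome 9, 89199209 to 89207827. The effector gene Bak1 (ENSMUSG00000057789.14) spans chromosome 17, 27019810 to 27029009, on the minus strand. Of the BH3-only genes, Bcl2l11 (ENSMUSG00000027381.16) spans chromosome 2, 128126038 to 128162547, on the plus strand, and Bmf (ENSMUSG00000040093.15) spans 118528757 to 118549687 of the same chromosome on the minus strand. Bid (ENSMUSG00000004446.12) spans chromosome 6, 120891930 to 120916853, on the minus strand, and Bad (ENSMUSG00000024959.14) spans chromosome 19, 6941861 to 6951899, on the plus strand. Of the exon bases of Bak1, 25.5% were also exon bases of Ggnbp1, and the shares were 20.5% for Bad with Gpr137, 17.7% for Bid with Bcl2l13 and 6.09% for Bcl2 with the antisense gene D630008O14Rik. Whether strand was used in the counting is not stated, so reads in these stretches could not be assigned to 1 gene with certainty. Bcl2l1, Mcl1, Bcl2l11 and Bmf shared no exon base with another gene of the GENCODE M21 annotation.

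Bcl2a1b is the member whose counts are hardest to assign. Mice carry near-identical copies of the A1 gene on chromosome 9, and the coding sequence of Bcl2a1b (516 bases) differed from Bcl2a1d at 6 bases and from Bcl2a1a at 11. Of the 50-base stretches of the Bcl2a1b transcript, 79.2% were also present in a transcript of another gene, against 0% to 17.2% for the other 8 members. In addition, 49.1% of its exon bases belong to Gm29094 on the same strand, a gene at 0 counts in all 19 libraries. The first 90 coding bases, which lie in 1 exon, are shown because no other window of that length within an exon held more differences, and the 3 copies are written with capitals at the 6 positions where not all of them have the same base. The Bcl2a1b stretch is chr9:89199360-89199449 (plus strand), that of Bcl2a1a is chr9:88957051-88957140 (plus strand) and that of Bcl2a1d is chr9:88731630-88731719 (minus strand), all on mm10.
Bcl2a1b: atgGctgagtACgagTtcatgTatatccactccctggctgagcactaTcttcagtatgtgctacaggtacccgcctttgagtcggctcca
Bcl2a1a: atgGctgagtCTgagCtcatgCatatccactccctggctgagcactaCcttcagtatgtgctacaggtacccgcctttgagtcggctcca
Bcl2a1d: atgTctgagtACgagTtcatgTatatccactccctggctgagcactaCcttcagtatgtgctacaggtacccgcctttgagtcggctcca
After the last capital the 3 copies were identical to the end of the window, so a read confined to these bases fits each of them.

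The promoters of the A1 copies were alike but for a short shift. The RefSeq promoter windows (250 bases before to 50 after a gene's start, GRCm38.p6) of Bcl2a1a, Bcl2a1b and Bcl2a1d each held GAGGAAGT, a sequence of the kind bound by PU.1 and other ETS factors, which 3.2% of 32851 promoter windows held on either strand. The 120 bases around it are shown in capitals at the motif, to let the copies be compared. The Bcl2a1b stretch is chr9:89199069-89199188 on the plus strand, and the Bcl2a1d stretch is chr9:88731891-88732010 on the minus strand.
Bcl2a1b promoter: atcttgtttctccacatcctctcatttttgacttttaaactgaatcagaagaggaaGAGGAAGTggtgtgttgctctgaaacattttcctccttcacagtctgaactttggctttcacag
Bcl2a1d promoter: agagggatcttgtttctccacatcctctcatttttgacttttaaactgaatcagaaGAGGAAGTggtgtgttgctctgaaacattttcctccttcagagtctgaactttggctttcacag
The Bcl2a1a window was identical to that of Bcl2a1b over all 120 bases, and Bcl2a1d differed from Bcl2a1b at 1 of the 64 bases from the motif on. Before the motif they differed at 32 of 56 bases when read position by position, and at 0 of 50 when Bcl2a1d was shifted by 6 bases, since Bcl2a1b has 6 further bases directly before the motif. Among the other members, windows of Bak1 and Bad held GAGGAAGT. The FoxO sequence GTAAACA, in 3.65% of windows, occurred in a Bcl2l11 window, and the NF-kappaB consensus, in 8.46% of windows, in windows of Bcl2l1 and Bmf. These matches describe the letters of the windows and do not show that a factor bound there.

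The family was counted at very unequal levels, and the order was nearly the same in all groups. Per kb of exon, Mcl1 was the most abundant member, with 91.7 ± 16.6 CPM per kb for YWT, 95.3 ± 11.5 for OWT, 91.6 ± 12.5 for YKO (SD, n = 4 each) and 80.4 ± 21.3 for OKO (SD, n = 7). Each Mcl1 value lay above all values of the next gene, Bid, in each group. Bid, Bad, Bcl2l1 and Bcl2 followed at group means of 8.0 to 24.3 CPM per kb, and neighbours among them overlapped in their libraries in YWT, OWT and OKO. In YKO the lowest Bid value (19.8 CPM per kb) was above the highest Bad value (17.4 CPM per kb), and Bcl2 (8.0 ± 0.79 CPM per kb, SD, n = 4) was the lowest of these 4 genes. Bcl2l11 stood lower, at 1.90 to 2.94 CPM per kb in the group means, and its values were below those of all 5 genes above it in each group. Bak1, Bcl2a1b and Bmf were the scarcest as counted, with group means of 0.23 to 1.59 CPM per kb. The place of Bcl2a1b is uncertain, since 79.2% of its 50-base stretches also occur in another gene and its full exon length was used. How reads that fit more than 1 gene were counted is not stated. Bcl2a1b was above Bmf in YWT and YKO and below it in OWT and OKO by group means, though the libraries of the 2 genes overlapped in YWT, OWT and OKO.

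**Figure D1:**
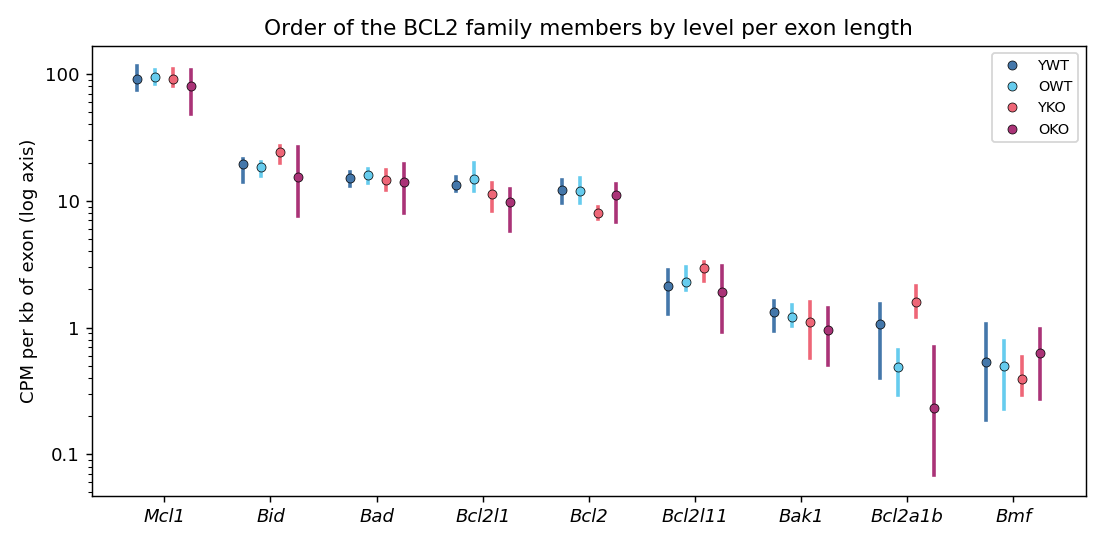
Level per exon length of each member (log axis, CPM per kb of exon), with the mean of each group as a point and the range of its libraries as a line. Mcl1 lies above all other members in each group. Bcl2a1b, which shares 79.2% of its 50-base stretches with another gene, has the lowest mean of all in OKO as counted (0.232 CPM per kb).

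The spread between libraries also differed by member. Over the 19 libraries the coefficient of variation of the CPM was 19.1% for Mcl1, 20.8% for Bad, 23.9% for Bcl2, 26% for Bcl2l1, 28.7% for Bid, 29.3% for Bak1, 31.3% for Bcl2l11, 46.2% for Bmf and 84.6% for Bcl2a1b. The 2 genes with the widest spread were counted by few reads, 30 to 329 for Bmf and 3 to 92 for Bcl2a1b, though Bak1 was counted by as few (36 to 256). OKO1 had the lowest TMM-scaled CPM of all libraries for Bcl2l1, Mcl1, Bak1, Bid and Bad, and OKO2 the lowest for Bcl2l11 and Bcl2a1b. Without TMM scaling (CPM of the library total), OKO1 was not the lowest for any of Bcl2l1, Mcl1, Bak1, Bid and Bad. For Bcl2l1, Mcl1 and Bad it was then at 48.5, 300 and 37.3 CPM, and YKO1 at 32.1, 256 and 26.5 CPM.

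**Figure D2:**
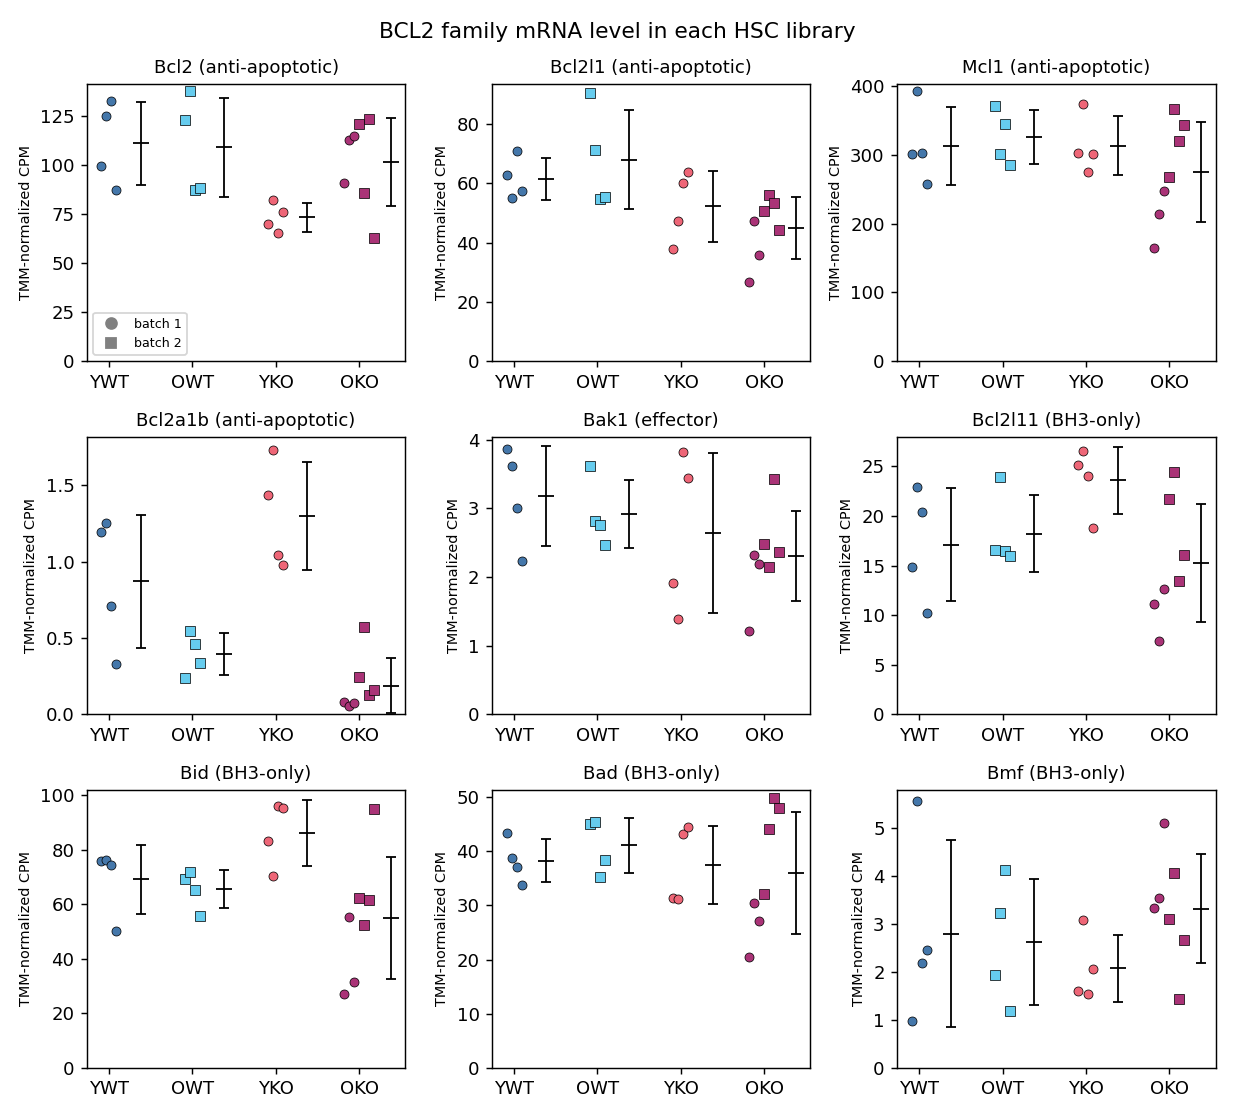
TMM-normalized CPM of the 9 members in each library (y axes from 0), by group, with circles for batch 1 and squares for batch 2; bars show mean ± SD. The 4 YKO libraries lie below all YWT libraries for Bcl2, and the 7 OKO libraries lie below all YKO libraries for Bcl2a1b.

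Among the anti-apoptotic genes, Bcl2a1b was the only member of the 9 to pass the thresholds in the fit of all 19 libraries (adjusted p under 0.05 and fold change over 1.5, edgeR quasi-likelihood test), and it fell from YKO to OKO. A1, its product, is an inducible survival protein of blood cells, best known from B cells, T cells and granulocytes. Bcl2a1b was at 1.19, 1.25, 0.709 and 0.328 CPM in YWT and at 0.241, 0.548, 0.460 and 0.335 CPM in OWT. It was at 1.44, 1.73, 1.04 and 0.977 CPM in YKO, and at 0.0558 (lowest), 0.130 (median) and 0.574 CPM (highest) in OKO. All 7 OKO libraries were below all 4 YKO libraries, while OWT overlapped both YWT and OKO. From YKO to OKO the log2 fold change was -2.75 (SE 0.57, 95% confidence interval -3.93 to -1.57, edgeR adjusted p = 0.0173). Bcl2a1b was 1 of 434 genes called among 33690 in this comparison, 1.29% of those tested, and the groups did not overlap for 2.6% of genes.

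The fall of Bcl2a1b was seen within batch 1 and rested on low counts. OKO1 to OKO3 held 3 to 5 reads of the gene, at 0.0558 to 0.0806 CPM, and against the YKO libraries of the same batch the log2 fold change was -4.07 (SE 0.67, edgeR adjusted p = 0.00207). In that comparison 17.9% of 35140 genes were called. OKO4 to OKO7 of batch 2 were at 0.130 to 0.574 CPM, also below all YKO libraries, but against YKO the adjusted p was 0.0728 (log2 fold change -2.17). Without YKO1 and YKO2, the libraries with the highest B cell marker sums and with Gadd45b within the YWT range, the log2 fold change was -2.38 and the adjusted p was 0.260. YKO3 and YKO4 alone were still above each OKO library, and their B cell marker sums (251 and 196 CPM) compare with 27.5 to 197 CPM in OKO. The erythroid marker sums also did not overlap between YKO and OKO. The part that B cell or erythroid transcripts have in the Bcl2a1b result was not tested. The 3 genes most like Bcl2a1b over the 19 libraries, by Pearson r of log2(CPM + 1) among 11304 genes, were Pltp (0.905), Hvcn1 (0.894) and H2-Ob (0.891), and the libraries share batch, depth and cell makeup in these correlations.

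**Figure D3:**
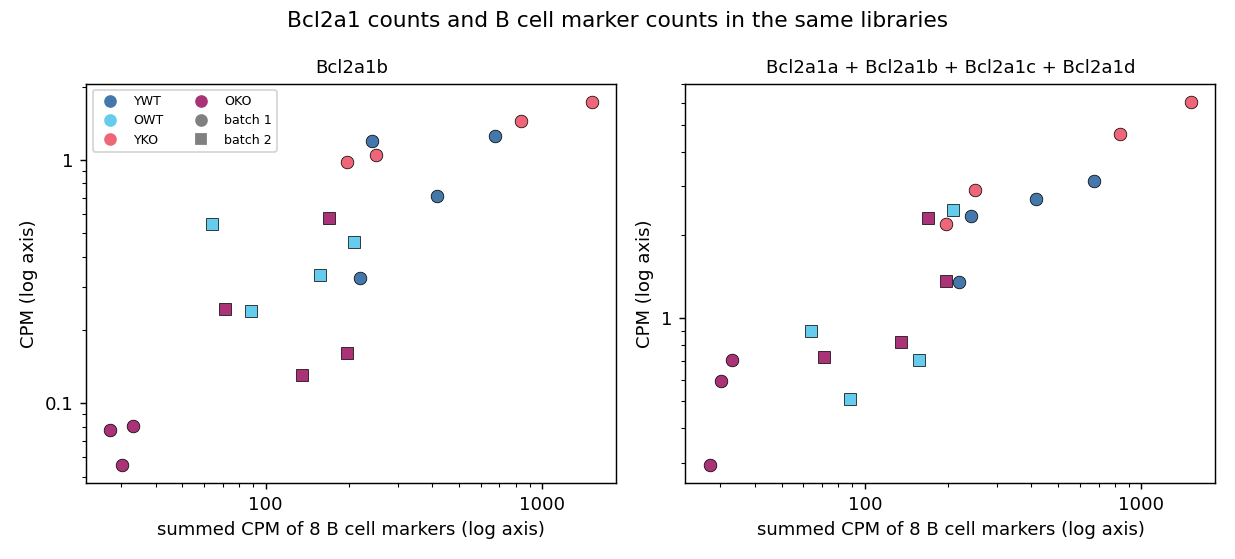
Bcl2a1b (left) and the sum of the 4 A1 copies (right), in CPM, against the summed CPM of 8 B cell markers in the same 19 libraries, both axes logarithmic, colours for groups and shapes for batches. Libraries with more B cell marker counts tended to have more A1 counts, from OKO1 to OKO3 at the lower left to YKO2 (1515 CPM of markers, 6.06 CPM of A1 copies) at the upper right.

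Summed over Bcl2a1a, Bcl2a1b, Bcl2a1c and Bcl2a1d, a sum that does not depend on which of these copies a read was assigned to, the A1 level was 3.95 ± 1.74 CPM in YKO (SD, n = 4) and 0.972 ± 0.667 CPM in OKO (SD, n = 7). OKO was below all YKO libraries in 6 of 7 libraries, and OKO5, at 2.30 CPM, was above YKO4, at 2.19 CPM. The difference was -1.32 on the log2(CPM + 1) scale (two-sided exact permutation test over 330 splits, p = 0.00606). In the edgeR fit with the copies summed into 1 gene, the log2 fold change was -2.02 (adjusted p = 0.0375). For the other comparisons the same permutation test of the sum gave p = 0.0857 in OWT vs YWT (1.15 ± 0.897 against 2.38 ± 0.759 CPM, SD, n = 4 each), p = 0.2 in YKO vs YWT and p = 0.745 in OKO vs OWT. Bcl2a1b made up 28.6% to 44.5% of the A1 counts in YKO and 9.38% to 34% in OKO.

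Bcl2 itself, the founding survival gene of the family, was lowest in YKO. It was at 99.3, 125, 133 and 87.2 CPM in YWT, at 123, 138, 87.4 and 88.2 CPM in OWT, and at 70.1, 81.9, 65.2 and 75.9 CPM in YKO. In OKO it ranged from 62.7 (lowest) through 113 (median) to 123 CPM (highest). All 4 YKO libraries lay below all 4 YWT libraries, and 6 of 7 OKO libraries lay above all YKO libraries, with OKO7 below them. The erythroid marker sum ran the other way, with all YKO libraries above all YWT and OKO libraries and OKO7 the highest of OKO, and its part in the Bcl2 values was not tested. Neither difference passed the thresholds. In YKO vs YWT, both of batch 1, the log2 fold change was -0.60 (SE 0.23, 95% confidence interval -1.07 to -0.13, unadjusted p = 0.0151, edgeR adjusted p = 0.865), and the groups did not overlap for 5.12% of all tested genes. In OKO vs YKO it was 0.47 (SE 0.20, unadjusted p = 0.0309, edgeR adjusted p = 0.260). Of 31 alternative fits of OKO vs YKO, 2 called Bcl2. They were OKO of batch 1 only and a filter at a mean CPM of at least 5 (log2 fold change 0.72, edgeR adjusted p = 0.0259). The log2 fold change from YWT to YKO stayed between -0.70 and -0.52 under 29 alternative fits, each with an unadjusted p under 0.05 and none with a call. Most of these fits left out 1 library, often of OWT or OKO, and the batch covariate gave the same -0.60. Many of them could therefore hardly move the value. D630008O14Rik, the antisense gene that shares exon bases with Bcl2, was the gene most like it (r = 0.931) and gave -0.67 between YKO and YWT (edgeR adjusted p = 0.830).

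Within batch 1, OKO1 to OKO3 (91.0 to 115 CPM of Bcl2) were above all YKO libraries, and Bcl2 was called there (log2 fold change 0.60, edgeR adjusted p = 0.0397). Of all 35140 genes, 17.9% were called there. The median log2 fold change of all genes in that comparison was 0.54, so Bcl2 moved about as far as the median gene. In batch 2, OKO4 to OKO7 against OWT gave -0.12 (edgeR adjusted p = 1.00), where 0.0801% of 29957 genes were called. OKO of batch 1 against OWT of batch 2, in which genotype and batch cannot be told apart, gave 12.4% of 35140 genes as called, and 4 members (Bcl2l1, Bcl2a1b, Bid and Bad, all lower in OKO).

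Bcl2l1, which encodes Bcl-xL, a survival factor of erythroid cells and platelets in particular, had its lowest group mean of TMM-scaled CPM in OKO. Without TMM scaling (CPM of the library total) its mean was 48.6 CPM in YKO and 49.4 CPM in OKO. Its levels were 62.8, 55.1, 71.1 and 57.5 CPM in YWT, 90.5, 71.2, 54.9 and 55.6 CPM in OWT, and 38, 47.3, 60.2 and 63.8 CPM in YKO. In OKO the lowest was 26.7, the median 47.2 and the highest 56.2 CPM. Of the 7 OKO libraries, 6 lay below all OWT libraries and OKO5 was within their range. By library total, OKO2, OKO4 and OKO6 (58.7, 51.8 and 52.7 CPM) were within the OWT range of 51.5 to 82.0 CPM. The log2 fold change in OKO vs OWT was -0.60 (SE 0.21, 95% confidence interval -1.03 to -0.18, unadjusted p = 0.00783, edgeR adjusted p = 0.592), and within batch 2 it was -0.39 (unadjusted p = 0.0652, edgeR adjusted p = 1.00). Its 95% confidence interval in YKO vs YWT ran from -0.72 to 0.25.

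Mcl1, the most abundant member, had the smallest coefficient of variation over the 19 libraries pooled but in no single group, where it was 18.1% in YWT, 12% in OWT, 13.6% in YKO and 26.4% in OKO. It was at 302, 392, 302 and 257 CPM in YWT, 371, 301, 345 and 286 CPM in OWT, 302, 374, 274 and 301 CPM in YKO, and 165 (lowest), 268 (median) and 367 CPM (highest) in OKO. The groups overlapped in all 4 comparisons. The 95% confidence interval of its log2 fold change was -0.44 to 0.55 in OWT vs YWT, -0.50 to 0.49 in YKO vs YWT, -0.68 to 0.19 in OKO vs OWT and -0.62 to 0.25 in OKO vs YKO. The low OKO values were those of batch 1 (165 to 248 CPM), and OKO4 to OKO7 were at 268 to 367 CPM. Without TMM scaling (CPM of the library total) the batches overlapped, at 266 to 349 CPM in batch 1 and 272 to 316 CPM in batch 2.

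The effector gene Bak1, whose product oligomerises into pores in the outer mitochondrial membrane, was scarce and overlapped between all groups. It was at 3.18 ± 0.72 CPM in YWT, 2.92 ± 0.50 in OWT, 2.64 ± 1.17 in YKO (SD, n = 4 each) and 2.31 ± 0.65 in OKO (SD, n = 7). Within YKO the values split, with 1.92 and 1.39 CPM in YKO1 and YKO2 and 3.82 and 3.44 CPM in YKO3 and YKO4. Its largest fitted difference was -0.34 in OKO vs OWT (95% confidence interval -0.99 to 0.31).

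Among the BH3-only genes, Bid and Bcl2l11 had their highest group means of TMM-scaled CPM in YKO and their lowest in OKO. Without TMM scaling (CPM of the library total) the mean of Bcl2l11 was 15.9 CPM in YWT and 16.6 CPM in OKO. The erythroid marker sums were also above all YWT and OKO libraries in YKO (489 to 1406 CPM), and OKO7 had the highest Bid level and the highest erythroid sum (469 CPM) of OKO. The part of erythroid transcripts in the values of both genes was not tested. Bid, the link from death receptors and caspase-8 to the mitochondrion, was at 75.8, 76.1, 74.4 and 50.1 CPM in YWT, 69.1, 71.7, 65.3 and 55.8 CPM in OWT, and 83.3, 70.2, 96.0 and 95.3 CPM in YKO. In OKO it was at 27.1 (lowest), 55.4 (median) and 94.8 CPM (highest). Of the YKO libraries, 3 of 4 lay above all YWT libraries, and 6 of 7 OKO libraries lay below all YKO libraries. The log2 fold change was 0.32 in YKO vs YWT (SE 0.28, edgeR adjusted p = 1.00) and -0.65 in OKO vs YKO (SE 0.25, unadjusted p = 0.0152, edgeR adjusted p = 0.194). Bcl2l13, which overlaps Bid on the other strand, had a log2 fold change of -0.93 in OKO vs YKO (edgeR adjusted p = 0.108) and of 0.69 in YKO vs YWT (edgeR adjusted p = 1.00).

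Bcl2l11 encodes Bim, a main mediator of death after loss of cytokines. It was at 14.9, 22.9, 20.4 and 10.2 CPM in YWT, 16.6, 24.0, 16.5 and 15.9 CPM in OWT, 25.1, 26.5, 24.0 and 18.8 CPM in YKO, and 7.40 (lowest), 13.5 (median) and 24.4 CPM (highest) in OKO. YKO overlapped YWT in 1 library, and 5 of 7 OKO libraries lay below all YKO libraries. The log2 fold change was 0.46 in YKO vs YWT (SE 0.31, edgeR adjusted p = 1.00) and -0.63 in OKO vs YKO (SE 0.27, unadjusted p = 0.0290, edgeR adjusted p = 0.254).

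Both genes tended to lower TMM-scaled OKO values in batch 1 than in batch 2, and the batches were not tested against each other. In batch 1 Bid was at 27.1 to 55.4 CPM and Bcl2l11 at 7.40 to 12.7 CPM. Both were called against YKO, with log2 fold changes of -1.12 (SE 0.23, edgeR adjusted p = 0.00583) and -1.11 (SE 0.27, edgeR adjusted p = 0.0119). Of all 35140 genes, 17.9% were called there too. In batch 2 Bid was at 52.5 to 94.8 CPM and Bcl2l11 at 13.5 to 24.4 CPM, and against OWT of the same batch the log2 fold changes were 0.08 for each. Without TMM scaling (CPM of the library total) the OKO batches overlapped for both genes. Bid was then at 44.6 to 68.8 CPM in batch 1 and 45.0 to 75.2 CPM in batch 2. Bcl2l11 was at 9.20 to 20.2 CPM in batch 1 and 12.7 to 22.2 CPM in batch 2. OKO1 to OKO3 had scaling factors of 1.24 to 1.83, and the part of scaling or library quality in these calls was not tested.

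Bad, which growth factor signals keep inactive by phosphorylation, and Bmf, which is tied to the cytoskeleton, did not pass the thresholds in any comparison of the fit of all libraries. Bad was at 38.3 ± 3.95 CPM in YWT, 41.1 ± 5.06 in OWT, 37.5 ± 7.29 in YKO (SD, n = 4 each) and 36.0 ± 11.3 in OKO (SD, n = 7). In OKO the TMM-scaled Bad values were 20.5 to 30.4 CPM in batch 1 and 32.2 to 49.9 CPM in batch 2, without overlap. Without TMM scaling (CPM of the library total) they did overlap, at 37.3 to 38.2 CPM in batch 1 and 32.9 to 49.3 CPM in batch 2. Bmf was at 2.79 ± 1.95 CPM in YWT, 2.62 ± 1.31 in OWT, 2.07 ± 0.71 in YKO (SD, n = 4 each) and 3.31 ± 1.14 in OKO (SD, n = 7). Its interval was the widest after that of Bcl2a1b, from -1.07 to 0.89 on the log2 scale in OWT vs YWT. In OKO vs YKO, 5 of 7 OKO libraries were above all YKO libraries for Bmf (log2 fold change 0.68, edgeR adjusted p = 0.455).

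**Figure D4:**
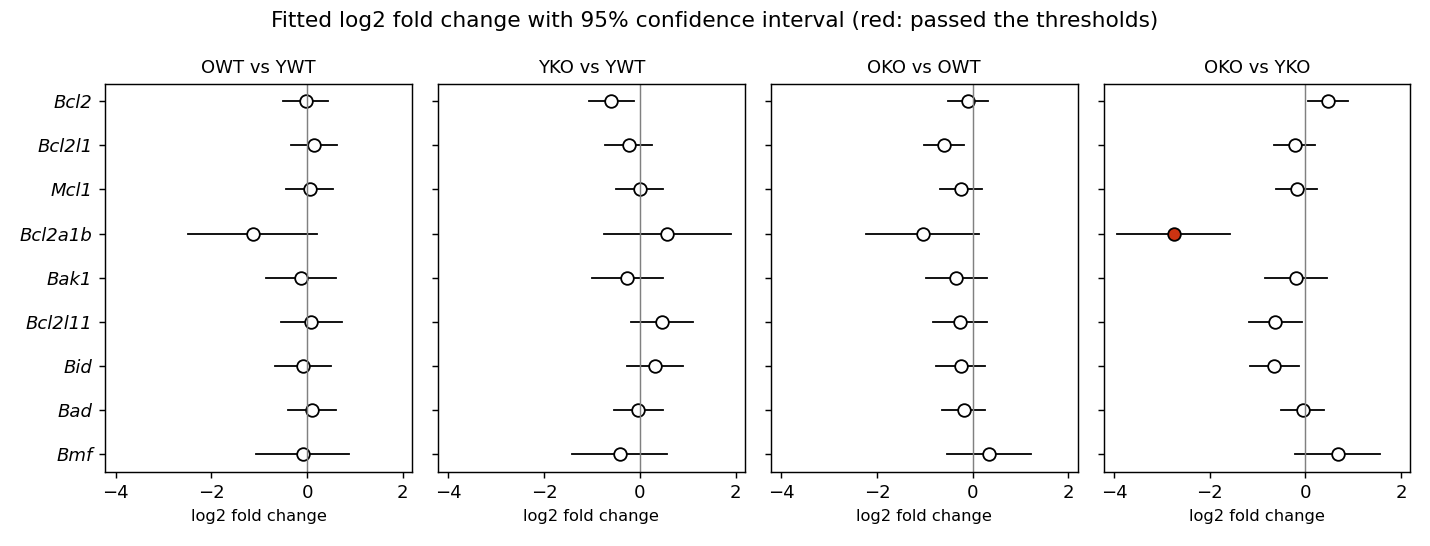
Fitted log2 fold change of each member (x axis) in the 4 comparisons, with 95% confidence intervals; red marks a gene that passed both thresholds. Bcl2a1b in OKO vs YKO (-2.75) is the one red point, and the intervals of Bcl2 in YKO vs YWT and of Bcl2l1 in OKO vs OWT also lie below 0 without an adjusted p under 0.05.

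Aging of WT HSCs (OWT vs YWT) gave no call among the 9 members with edgeR or DESeq2, and 0 had an unadjusted p under 0.05. With batch as a covariate, a term that rests on the OKO libraries as the one group in both batches, 4 members had an unadjusted p under 0.05 (Bcl2a1b -3.07, Bid -0.91, Bad -0.64 and Mcl1 -0.58 on the log2 scale), against 16.8% of all genes, and 0 were called. Without that term 0.00297% of all genes were called (0.401% with DESeq2), 4.38% had an unadjusted p under 0.05 and 4.13% did not overlap between the groups, against 0 of the 9 members. The median log2 fold change of the members was -0.03, against -0.05 over all genes, and the largest was that of Bcl2a1b (-1.13, 95% confidence interval -2.48 to 0.22, edgeR adjusted p = 1.00). Between young knockout and young WT HSCs the comparison likewise gave 0 calls with either tool, against 0.0267% of all genes with edgeR and 0.416% with DESeq2, and Bcl2 was the 1 member with an unadjusted p under 0.05, against 4.59% of all genes. The members' median was -0.03, against -0.02 over all genes.

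Loss of Gadd45b in old HSCs (OKO vs OWT) gave 0 calls among the members with either tool, against 0.0327% of all genes with edgeR and 0.22% with DESeq2. Bcl2l1 was the 1 member with an unadjusted p under 0.05, against 8.14% of all genes, and no member separated the groups, against 0.819% of all genes. Fitted values were below 0 for 8 of 9 members, with a median of -0.25, whereas the median of all genes was 0.115. Within batch 2 (OKO4 to OKO7 against OWT) they were below 0 for 4 of 9 members, with a median of 0.02 against 0.03 over all genes. In OKO vs YKO, besides the call of Bcl2a1b, which DESeq2 also made (6.23% of all genes were called by it), 4 of 9 members had an unadjusted p under 0.05 (Bcl2 upward, Bcl2a1b, Bcl2l11 and Bid downward), against 15.8% of all genes. The members' median was -0.20, and that of all genes was 0.235. The genotype by age interaction, which asks whether the knockout effect differs between old and young HSCs, was called for 0% of all genes and 0 members with edgeR and for 0 members and 0.0178% of all genes with DESeq2. With edgeR 0 members had an unadjusted p under 0.05, against 4.62% of all genes, and the smallest was that of Bcl2a1b (log2 difference -1.62, SE 0.86, unadjusted p = 0.0739, adjusted p = 0.811).

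Relative to Bid, Bcl2l11 and Mcl1 in the same library, Bcl2 was lower in each YKO library than in each YWT library. Ratios of CPM within a library do not depend on the library's scaling factor. Of the 36 ratios that the 9 members form, 7 did not overlap between YKO and YWT, 1 between OWT and YWT, 0 between OKO and OWT and 8 between OKO and YKO. Single genes did not overlap in 5.12%, 4.13%, 0.819% and 2.6% of cases in these comparisons. The ratios share their members, so their counts are not comparable with those shares, and of the 7 in YKO vs YWT 4 contained Bcl2 and 4 contained Bid. Bcl2 over Bid was 0.679 to 1.17 in YKO and 1.31 to 1.78 in YWT. Bcl2 over Bcl2l11 was 2.72 to 4.04 in YKO and 5.45 to 8.52 in YWT. Bcl2 over Mcl1 was 0.219 to 0.252 in YKO and 0.318 to 0.438 in YWT. Bid over Bad was 2.14 to 2.66 in YKO, above the 1.48 to 2.00 of YWT and the 1.17 to 1.97 of OKO. Of the 8 ratios that separated OKO from YKO, 7 contained Bcl2a1b and the other was Bid over Bad. These ratios were read from the same libraries as the single levels and were not tested.

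**Figure D5:**
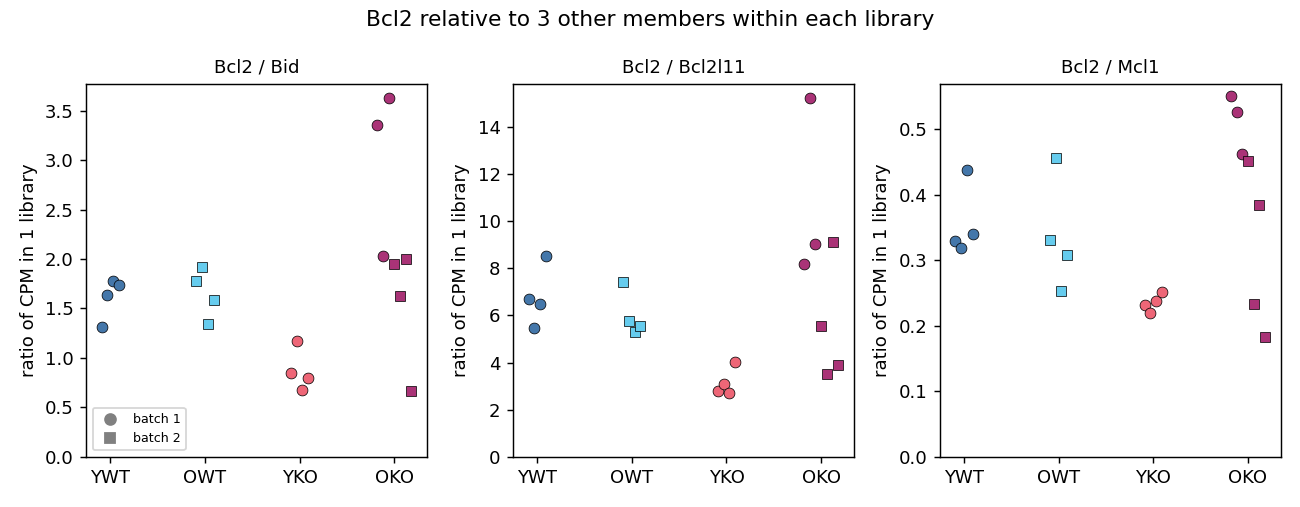
Ratio of Bcl2 CPM to Bid, Bcl2l11 and Mcl1 CPM in each library (y axes from 0), by group, with circles for batch 1 and squares for batch 2. In each panel the 4 YKO libraries lie below all YWT and OWT libraries, and OKO spreads from within or below the YKO range to above the WT ranges.

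The other genes of the pathway gave no call with edgeR. Of 17 further BCL2 family genes, 16 passed the filter (Bcl2a1c did not) and 0 were called in any of the 5 comparisons. Of 18 other genes of the pathway, among them caspases, their activators and their inhibitors, likewise 0 were called. In OKO vs YKO, 3 of the 16 and 6 of the 18 had an unadjusted p under 0.05, all with a negative log2 fold change, and DESeq2 called Bcl2l13 and Bcl2a1d of the 16 and 1 gene of the 18 as lower in OKO, where it called 2.53% of all genes as lower. Bcl2a1d, the A1 copy nearest to Bcl2a1b, had a log2 fold change of -2.29 (edgeR adjusted p = 0.131).

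In the other comparisons, genes of these lists with small p were as follows. In YKO vs YWT, Bcl2l13, a mitochondrial family member, had a log2 fold change of 0.69 with all 4 YKO libraries above YWT, and Xiap, an inhibitor of caspases, had -0.76 (edgeR adjusted p = 0.826) with all 4 below. In OKO vs OWT, Bcl2l12 had -0.61 (edgeR adjusted p = 0.592), with all 7 OKO libraries below OWT, and Casp8, the initiator caspase of death receptors, had -0.30 (edgeR adjusted p = 0.602). In OWT vs YWT, Pmaip1, which encodes Noxa, had -1.36 (edgeR adjusted p = 1.00). For the interaction, Bcl2l15 had a log2 difference of 1.81 and Casp9, the initiator caspase of the apoptosome, -0.73 (both edgeR adjusted p = 0.811). At an unadjusted p under 0.05, edgeR gave 1 gene of each list in YKO vs YWT, 3 and 0 in OKO vs OWT, 0 and 0 in OWT vs YWT and 1 and 1 for the interaction, and DESeq2 called 0 in these 4.

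Across the 19 libraries the members did not vary as 1 group. Among the 36 pairs, Pearson r of log2(CPM + 1) ran from -0.40 for Bid and Bmf to 0.75 for Bcl2l1 and Bad. Bcl2l1, Bak1 and Bad were alike pairwise (r of 0.75 for each pair), Bcl2a1b was most like Bcl2l11 (0.705), and Bcl2 and Bcl2a1b had r = -0.29. The libraries share groups, batches and scaling, so these values are descriptions. The genes most like each member among 11303 or 11304 with a mean log2 level of at least 3 were, besides those given above for Bcl2a1b, D630008O14Rik, Dsel and Maml2 for Bcl2 (r of 0.88 to 0.93), and Fut11, Tmem202 and Dtnbp1 for Bcl2l1 (0.89 to 0.90). They were Mgat1, Srpr and Creb3 for Mcl1 (0.92 to 0.93), and 3830406C13Rik, Gabpa and Gm45231 for Bak1 (0.88). For the BH3-only genes they were Gm45760, Got2 and Mad1l1 for Bid (0.97), Ap2s1, Aprt and Ndufa8 for Bad (0.95 to 0.97), Cyb561d1, Lss and Cyth1 for Bcl2l11 (0.88 to 0.89), and Ric1, Inpp4a and Dennd5b for Bmf (0.64 to 0.71). Bmf had the weakest likeness to any gene.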

How the data were processed

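The 19 HSC libraries were made for RNA-seq with the SMART-Seq v4 kit. The WGBS samples were not analysed here. The authors trimmed reads with Trim Galore 0.4.3 and cutadapt, ran STAR on mm10 (index from GENCODE M22), and deposited raw read counts per gene symbol from featureCounts. How mates and strand were handled in the counting is not given in the sources used here. Batches are those of the study's summary of the raw data. All values come from these counts.

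Counts were filtered with filterByExpr, scaled by TMM and tested with the quasi-likelihood test of edgeR 4.0.16 (limma 3.58.1, R 4.3.3) in a fit that took all 19 libraries together and had a mean for each group and no other term. A gene was called at a Benjamini-Hochberg adjusted p under 0.05 over all 33690 tested genes and a fold change over 1.5, and the interaction on the adjusted p alone. CPM are TMM-scaled unless given as CPM of the library total, and 1 was added before logarithms. Alternatives were DESeq2 1.42.0 (which left the adjusted p of at most 1 member undefined in a comparison), other scalings and filters, batch or sex as a covariate, OKO of 1 batch, the compared groups alone, a replicate block, and leaving out each library. The fit without YKO1 and YKO2 was added after the data were seen. Leaving 1 library out kept at least 3 per group.

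The members and gene lists were chosen with earlier results of these data known. The text names all 9 members, their A1 copies, Gadd45b, genes of the 2 other lists that were called or had the smallest p in a comparison, and the 3 genes most like each member. D630008O14Rik, Bcl2l13, Ggnbp1, Gpr137 and Gm29094 are named because their exons overlap a member, Bcl2a1d also because DESeq2 called it. Some genes that this rule would name are not reported here. Exon lengths and overlaps are those of GENCODE M21. Promoter windows were found in RefSeq for all 9 members (15 windows).

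The test was checked on data simulated for OKO vs YKO from these libraries with 200 of 31880 genes changed. It recovered 6 of 100 genes changed 2-fold and 64 of 100 changed 4-fold, with 3 calls on unchanged genes. In that simulation most 2-fold changes thus went uncalled. Its changed genes were drawn without regard to level above a low minimum count, so its recovery need not hold for the abundant members. In OKO vs YKO the SE was 0.20 for Bcl2 and 0.21 for Mcl1, against 0.57 for Bcl2a1b.

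Replicates with the same number did not deviate together (r from -0.45 to 0.277 over 16 pairs), and no 2 libraries of a group agreed within sampling noise. Sex is female on all labels, and the sex covariate follows the study's own summary.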

Additional observations from a re-analysis of the deposited data

Results flagged for a closer look

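Of 36 tests of the most extreme library (9 members in 4 groups, Dixon's ratio), 3 passed the critical value, and chance gives about 5%. Bcl2a1b in OKO5 was at 0.574 CPM, and the next OKO library was at 0.245 CPM. Bcl2l11 in OWT2 was at 24.0 CPM, with the next OWT library at 16.6 CPM. Bid in YWT4 was at 50.1 CPM, and the other YWT libraries were at 74.4 CPM or more. No member had opposite separations of the groups at the 2 ages, and none passed the threshold for the interaction.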

How the results depend on the processing

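Each comparison was refitted under 28 to 31 alternatives. Of 1313 refitted values for single members, 1225 kept direction and side of the threshold, 12 gained a call, 5 lost one (all Bcl2a1b in OKO vs YKO) and 71 changed sign, each of them uncalled in the reported fit. In OWT vs YWT, YKO vs YWT and the interaction 0 members were called in every alternative run. The reported fit of OKO vs YKO called 434 genes. In OKO vs YKO the count of called members was 3 with batch as a covariate, where 6420 genes were called. It was 4 with OKO of batch 1 only, where 6285 genes (17.9%) were called. With a mean CPM of at least 5, which drops Bcl2a1b, Bcl2 was called (0.72, edgeR adjusted p = 0.0259). The count of called members was 0 with OKO of batch 2 only, 0 with only the compared groups and 2 with the replicate block. Without YKO1 and YKO2 it was 0, and 21 genes were called. When 1 library was left out, the count of called members ranged from 0 (without YKO1 or YKO2) to 2 (without OKO7). In OKO vs OWT it was 4 with OKO of batch 1 only, a setting in which genotype and batch cannot be told apart and 4350 genes (12.4%) were called. In OWT vs YWT, 4 members had an unadjusted p under 0.05 with batch as a covariate, against 0 without it. The replicate block, on numbers that only name the libraries, added a call of Bid in OKO vs YKO (-0.99, adjusted p = 0.0440). The cause of these shifts was not tested. The log2 fold change of Bcl2a1b in OKO vs YKO ran from -4.14 to -2.02, with an unadjusted p under 0.05 in all 31 alternatives and an adjusted p from 0.000107 to 0.260. Over all genes the number called ranged from 21 (without YKO1 and YKO2) to 6420 (batch as a covariate) in OKO vs YKO, from 0 to 4350 in OKO vs OWT, from 0 to 135 in OWT vs YWT, from 2 to 140 in YKO vs YWT and from 0 to 163 for the interaction.

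The sign changes, as log2 fold changes, were these. With batch as a covariate they were, in OWT vs YWT, Bad -0.64, Bcl2 0.087, Bcl2l1 -0.34, Bcl2l11 -0.77, Bmf 0.41 and Mcl1 -0.58, in OKO vs OWT, Bad 0.083, Bcl2l11 0.054 and Bid 0.049, and for the interaction, Bad 0.11 and Bak1 0.10. With OKO of batch 2 only they were, in OKO vs OWT, Bad 0.11, Bcl2l11 0.082, Bid 0.077 and Mcl1 0.021, in OKO vs YKO, Bad 0.23 and Mcl1 0.079, and for the interaction, Bad 0.13, Bak1 0.11 and Mcl1 0.020. With a mean CPM of at least 5, which drops Bcl2a1b, Bak1 and Bmf, they were Bad 0.092 (interaction), 0.022 (OKO vs OWT) and 0.13 (OKO vs YKO) and Bcl2 0.20 (OKO vs OWT). With upper-quartile normalization they were Bad 0.013 (interaction) and 0.060 (OKO vs YKO), Bak1 0.11 (interaction), Bcl2 0.15 (OKO vs OWT) and Mcl1 0.031 (YKO vs YWT). Without a filter Bad became 0.014 in OKO vs YKO and Bak1 0.0051 for the interaction. Without YKO1 and YKO2, Bad and Bak1 in YKO vs YWT became 0.18 and 0.17. DESeq2 gave Bak1 0.0017 (interaction), Bcl2 0.022 (OKO vs OWT) and Mcl1 0.027 (YKO vs YWT), and its size factors in edgeR gave 0.0087, 0.022 and 0.027. Bcl2 in OKO vs OWT became 0.016 with only the compared groups and 0.024 with the replicate block, and Mcl1 in YKO vs YWT became 0.0022 with the replicate block and 0.0016 with sex as a covariate.

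Leaving out 1 library changed signs within these ranges. They were -0.15 to 0.085 for Bad in OKO vs YKO, -0.15 to 0.054 for Bad in YKO vs YWT, -0.28 to 0.19 for Bak1 in the interaction, -0.40 to 0.072 for Bak1 in OKO vs YKO, -0.17 to 0.035 for Bcl2 in OKO vs OWT, -0.13 to 0.074 for Bcl2 in OWT vs YWT, -0.011 to 0.23 for Bcl2l1 in OWT vs YWT and -0.088 to 0.27 for Bcl2l11 in OWT vs YWT. They were -0.41 to 0.47 for Bmf in OWT vs YWT, -0.74 to 0.11 for Bmf in YKO vs YWT, -0.027 to 0.18 for Mcl1 in OWT vs YWT and -0.099 to 0.095 for Mcl1 in YKO vs YWT. Bcl2a1b was counted by 3 to 92 reads per library, Bmf by 30 to 329 and Bak1 by 36 to 256, and how far depth sets their intervals was not tested.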
